A study of Mus musculus with 9 samples.

Results

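The genes described here are 45 named genes of homologous recombination and DNA damage repair, chosen by name from the 48230 genes kept of the deposited expression table. Of these, 44 were matched in the table by their symbol, and 41 were high enough to be tested for treatment among 11788 genes tested. Fanca was not matched and is not analysed here. Fancb, Fancf and Polq lay under the filter on low values and are described by their levels.

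RNA was measured in BeCon cells, tumor cells of a mouse ovarian cancer study, by sequencing of poly(A)-selected RNA. In 8 libraries the cells came from the ascites (the fluid that gathers in the abdomen) of B6 mice carrying BeCon tumors. The mice had received vehicle (4 libraries) or YKL-05-099 (4 libraries), a compound that inhibits the salt-inducible kinases. The tumor component had been sorted from the ascites as live cells that carry MHC class I and lack CD45, the antigen of leukocytes. In addition, 1 library was made from cultured BeCon cells, which had no mouse host, no drug and no replicate. The labels give neither the genotype of the BeCon cells nor the dose, the length of treatment or the age of the mice. Nor do they state if 1 mouse or several gave a library, and the p-values below therefore rest on the spread of the libraries alone. The names of the vehicle libraries share a prefix and those of the YKL-05-099 libraries share another, so anything else behind that prefix cannot be told apart from treatment.

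A break across both DNA strands can be mended by homologous recombination, which copies the lost sequence from the sister chromatid after replication, or by non-homologous end joining, which rejoins the ends directly. In recombination the MRE11-RAD50-NBN complex senses the break, nucleases resect the ends, BRCA1, PALB2 and BRCA2 prepare the ends to invade the sister duplex, and the Fanconi anemia proteins bring the same machinery to DNA crosslinks. High-grade ovarian cancers often lose genes of this route and are then treated with inhibitors of PARP enzymes.

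All values are deposited FPKM, in which the fragments of a gene are divided by its transcript length and by the mapped fragments of the library. The FPKM of a library summed to between 453169 and 482851, and 11421 to 11893 genes per library reached an FPKM of 1. Fragment counts were not used here, so no counting interval can be given. Wt1, a marker of mesothelial and serous ovarian cells, stood at 551 to 565 FPKM in vehicle and 501 to 529 FPKM in YKL-05-099 libraries. It was called lower (limma adjusted p = 0.0426). Of 6 mesothelial markers tested 2 were higher, 2 lower and 2 not called, beside 28.0% higher and 15.1% lower of all genes tested. Muc16 rose from a mean of 6.86 to 9.82 FPKM and Nkain4 from 51.1 to 63.3 FPKM, while Lrrn4 fell from 9.12 to 6.49 FPKM. Among keratins of simple epithelia, Krt19 fell from a mean of 364 to 283 FPKM, Krt18 rose from 172 to 248 FPKM, and Krt8 was at 60.6 and 60.3 FPKM. Krt7 was at means of 31.5 and 21.6 FPKM, not called, and at 0.0804 FPKM in culture. Of 8 tested epithelial and ovarian tumor markers, these keratins among them, 3 were higher, 3 lower and 2 not called. Cdh1, which encodes E-cadherin, was at means of 0.0423 and 0.0288 FPKM. Epcam, a pan-epithelial marker, was at 0.285 to 0.624 FPKM in vehicle and 0.0174 to 0.110 FPKM in YKL-05-099 libraries, without overlap, and was listed at 0 in culture. Both lay under the filter and were not tested. Of 15 pan-leukocyte markers 7 were tested and 5 of these fell with treatment. Their summed level was 35.4 to 68.5 FPKM in vehicle, 19.1 to 27.1 FPKM in YKL-05-099 and 14.6 FPKM in culture. Cytip, Arhgdib and Ptpn6 supplied most of that sum in YKL-05-099 (means of 6.76, 8.84 and 2.56 FPKM) and in culture (5.67, 1.98 and 4.23 FPKM). Laptm5 fell from a mean of 5.10 to 0.816 FPKM and Cd53 from 3.27 to 0.748 FPKM, and both were listed at 0 in culture. Ptprc, which encodes CD45 itself, was at 0.346 to 0.772 FPKM in vehicle and 0.0308 to 0.276 FPKM in YKL-05-099 libraries and was listed at 0 in culture. Of macrophage markers 9 of 11 tested fell, as did 5 of 5 erythroid and 5 of 6 fibroblast markers, against 15.1% of all genes tested. Csf1r, Marco, Itgam and, of the pan-leukocyte markers, Itgb2 stayed under an FPKM of 1 in every YKL-05-099 library. They entered the test through the vehicle libraries alone, so the counts of macrophage and leukocyte markers that fell are in part set by the filter. Cultured BeCon cells themselves held Dcn at 243, Col1a1 at 32.2 and Col3a1 at 23.6 FPKM, while Col1a2 was at 0.0668 FPKM and Lum listed at 0. Between vehicle and YKL-05-099, Col1a2 fell from a mean of 19.7 to 2.86 FPKM and Col1a1 from 9.52 to 4.23 FPKM. Lum, under the filter, was at means of 0.179 and 0.0179 FPKM, and Dcn was not called. Whether fewer fibroblasts or lower levels in the tumor cells lie behind the fall of this list was not tested. The summed level of the macrophage markers was 349 to 520 FPKM in vehicle, 146 to 220 FPKM in YKL-05-099 and 85.2 FPKM in culture, of which Gata6 alone supplied means of 214.5 and 138 FPKM and, in culture, 74.7 FPKM. Other macrophage genes fell further than that sum: Lyz2 from a mean of 97.5 to 17.9 FPKM, C1qa from 23.2 to 3.57 FPKM and Marco from 4.33 to 0.261 FPKM.

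In vehicle-treated mice the mean level of a repair gene ran from 0.402 to 55.5 FPKM, a scale that allows genes to be compared per length of transcript. The median over 44 genes was 4.11 FPKM, 13 genes reached a mean of 10 FPKM and 9 lay under 2 FPKM. Parp1, the abundant enzyme that senses nicks and breaks and is the main target of PARP inhibitors, was the highest at 55.5 ± 3.76 FPKM (SD, n = 4), followed by the Ku70 gene Xrcc6 at 38.3 ± 1.99 FPKM. Rbbp8, whose product CtIP starts end resection, was next at 24.9 ± 0.395 FPKM. Trp53bp1 at 20.9 ± 2.20 FPKM and Mre11a at 20.3 ± 0.152 FPKM did not differ beyond their spread, and neither did Xrcc5 at 18.5 ± 0.397 and Usp1 at 18.4 ± 0.904 FPKM. Both checkpoint kinase genes had nearly the same level, at 6.42 ± 0.455 FPKM for Chek1 and 6.39 ± 0.377 FPKM for Chek2. Brca2 at 5.59 ± 0.649 FPKM and Brca1 at 4.13 ± 0.747 FPKM were in the middle of the order. At the low end were Fancb at 0.639 ± 0.0551, Polq at 0.519 ± 0.103 and Fancf at 0.402 ± 0.114 FPKM.

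**Figure D1:**
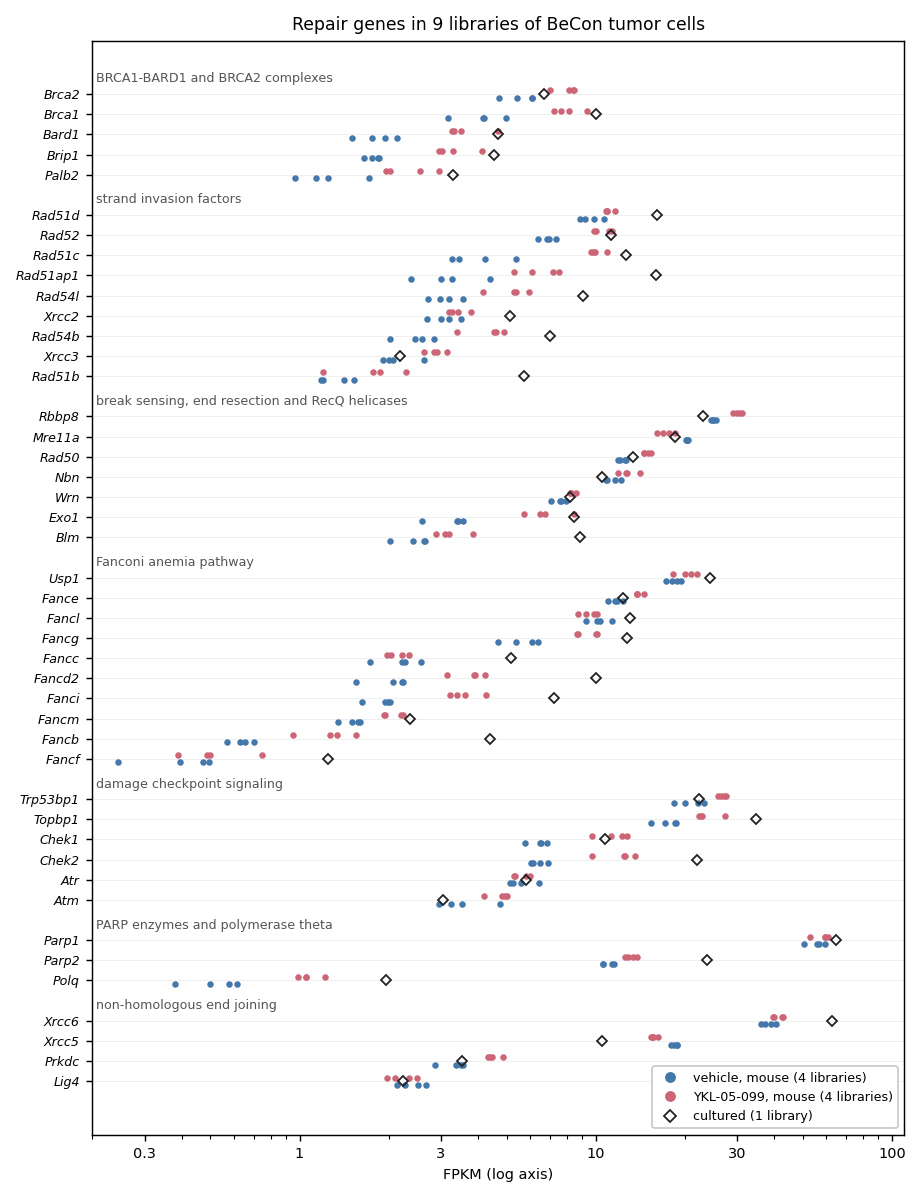
FPKM of 44 repair genes in each library (horizontal log axis), grouped by role and ordered within a role by vehicle level; filled points are the 4 vehicle and 4 YKL-05-099 libraries and diamonds the cultured library. In the BRCA1 group every YKL-05-099 point lies to the right of every vehicle point, whereas for Mre11a and Xrcc5 it lies to the left.

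The main comparison asked how treatment of the host mouse with YKL-05-099 altered these genes in the tumor cells. Of the 41 tested genes 28 rose (68.3%, against 28.0% of all genes tested), 2 fell (4.88%, against 15.1%) and 11 were not called, by limma with a Benjamini-Hochberg adjusted p under 0.05. The genes that rose included all 5 of the BRCA1-BARD1 and BRCA2 complexes, 7 of 9 factors of strand invasion, and 5 of 6 checkpoint genes. Both genes that fell, Mre11a and Xrcc5, encode proteins that bind broken ends. The genes of their partners in the same complexes did not fall, as Rad50 rose and Nbn and Xrcc6 were not called. The vehicle and YKL-05-099 values did not overlap in 28 genes that were higher and 2 that were lower (73.2% of those tested), against 26.5% higher and 13.5% lower among all genes tested.

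Sizes were moderate. The median log2 fold change of the 41 genes was 0.31, beside 0.05 over all genes tested, 15 genes reached 0.5, and Rad51c alone reached 1. Because 1 is added to the FPKM before the logarithm, fold changes of genes with low values come out too small. In RNA of bulk sorted cells, a larger share of cells holding a transcript and more of it per cell cannot be told apart. When the libraries were rescaled by median of ratios, 26 repair genes were higher (21.2% of all genes) and 2 lower (20.9%), with a median log2 fold change of 0.27. That scaling moved the split over all genes from 3304 higher and 1785 lower to 2499 higher and 2470 lower.

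**Figure D2:**
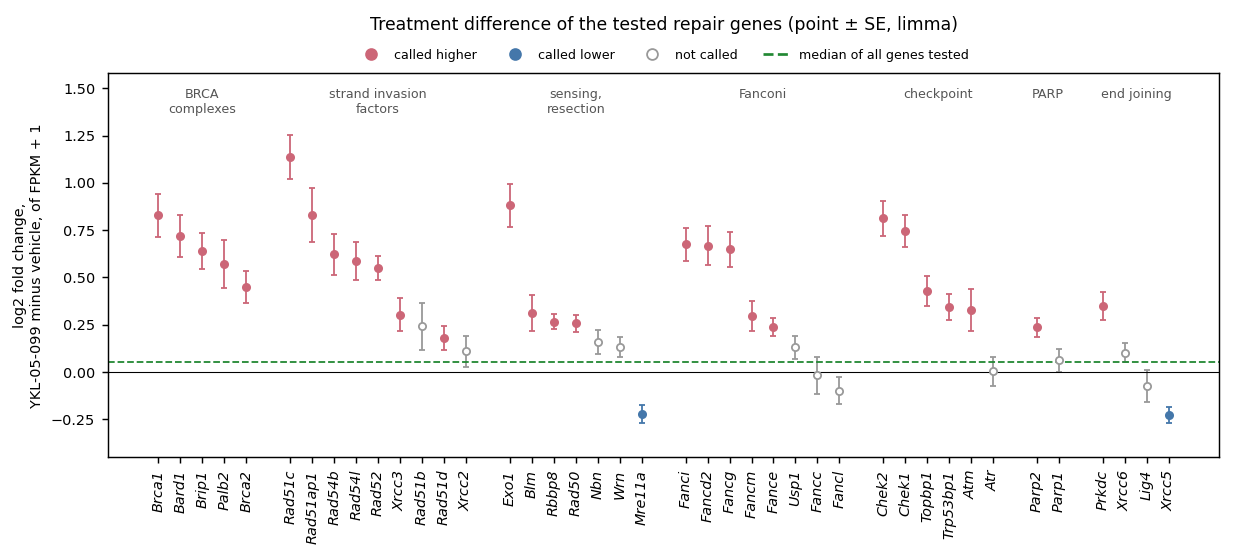
Log2 fold change of log2(FPKM + 1), YKL-05-099 minus vehicle, of the 41 tested repair genes (vertical axis), grouped by role; points are limma estimates, bars 1 standard error, filled points are called and open points are not. Rad51c is the highest at 1.14, Mre11a at -0.22 and Xrcc5 at -0.23 are the only called genes under 0, and the dashed line marks the median of all genes tested at 0.05.

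Upstream sequences are shown for 3 genes that rose and for both that fell, so that their promoters can be read side by side. Each line holds 250 bases before the RefSeq start site on GRCm38.p6, 5′ to 3′ on the strand of the gene. Capitals mark matches on either strand to letters bound by cell cycle and cAMP response factors: E2F sites (TTTCCCGC, TTTCGCGC, TTTGCCGC or TTTGGCGC), the cell cycle homology region (CHR) TTTGAA, the CCAAT box, and TGACGT, the core of the cAMP response element that CREB binds. These 5 genes were chosen after their letters and values had been seen.
Brca1 (chr11:101551956-101552205, minus strand): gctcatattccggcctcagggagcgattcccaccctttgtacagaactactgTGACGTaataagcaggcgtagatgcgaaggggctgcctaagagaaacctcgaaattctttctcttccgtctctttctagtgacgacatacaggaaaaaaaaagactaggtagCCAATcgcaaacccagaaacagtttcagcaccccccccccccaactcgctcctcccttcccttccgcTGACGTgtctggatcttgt
Brca2 (chr5:150522371-150522620, plus strand): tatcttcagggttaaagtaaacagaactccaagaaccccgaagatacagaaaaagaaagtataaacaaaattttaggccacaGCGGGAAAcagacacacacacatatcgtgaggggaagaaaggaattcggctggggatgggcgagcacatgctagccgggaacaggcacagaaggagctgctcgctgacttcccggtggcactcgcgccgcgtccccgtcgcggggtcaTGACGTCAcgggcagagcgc
Chek2 (chr5:110839733-110839982, plus strand): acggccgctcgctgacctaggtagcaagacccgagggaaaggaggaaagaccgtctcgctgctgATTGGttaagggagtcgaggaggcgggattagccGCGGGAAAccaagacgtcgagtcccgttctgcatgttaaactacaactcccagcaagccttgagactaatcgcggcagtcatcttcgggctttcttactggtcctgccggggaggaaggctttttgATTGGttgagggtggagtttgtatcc
Mre11a (chr9:14784404-14784653, plus strand): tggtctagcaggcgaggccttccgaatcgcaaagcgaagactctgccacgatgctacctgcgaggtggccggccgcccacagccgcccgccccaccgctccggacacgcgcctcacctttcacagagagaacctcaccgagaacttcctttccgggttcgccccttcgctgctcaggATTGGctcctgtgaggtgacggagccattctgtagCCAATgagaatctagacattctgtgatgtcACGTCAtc
Xrcc5 (chr1:72307171-72307420, plus strand): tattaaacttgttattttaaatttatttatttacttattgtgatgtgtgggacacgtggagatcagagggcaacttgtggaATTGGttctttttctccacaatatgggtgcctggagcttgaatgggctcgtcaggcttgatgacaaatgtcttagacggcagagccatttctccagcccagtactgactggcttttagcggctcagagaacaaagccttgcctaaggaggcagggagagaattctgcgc

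Among the lines above, Brca1 holds TGACGT at 198 and 19 bases before the start site and a CCAAT box at 86. Brca2 holds an E2F match at 168 bases and, at 20 bases before the start, the full palindrome TGACGTCA, of which TGACGT is a part. Chek2 holds an E2F match at 152 bases between CCAAT boxes at 186 and 26 bases. Of the genes that fell, Mre11a holds CCAAT boxes at 73 and 38 bases and TGACGT at 8 bases, and Xrcc5 holds a CCAAT box at 169 bases.

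A promoter window of 300 bases (250 before the start site and 50 after) could be searched for 30 of the 44 genes. Not searched were Exo1, Fancd2, Rbbp8, Rad54b, Nbn, Wrn, Rad51d, Usp1, Rad50, Prkdc and Xrcc2, and, with RefSeq and deposited start sites over 500 bases apart, Fancc, Fancl and Xrcc6. The E2F letters occurred in 6 of the 30 windows (Bard1, Brca2, Rad51c, Fancg, Topbp1 and Chek2), against 2.26% of all 32851 promoters and 4.11% of the 11389 promoters of tested genes. All 6 belong to the 21 searched genes that rose, which were most of the 30, beside 2 that fell, 4 not called and 3 not tested. The share with E2F letters among all genes that rose was not counted, so no link of these letters to the rise can be read from this. CCAAT occurred in 16 windows (37.4% of all promoters and 37.8% of those of tested genes), 11 of them of genes that rose and 2 of genes that fell. TGACGT occurred in 5 windows (Brca1, Brca2, Mre11a, Trp53bp1 and Parp2, 16.7% of the windows, against 7.51% of all promoters and 11.8% of those of tested genes). The full TGACGTCA, which contains it, was in Brca2 alone (3.33% of the windows, against 1.79% and 3.23%). TTTGAA was found in 3 windows, or 10% (17.9% of all promoters and 11.7% of those of tested genes). A match is a description of the letters and not a bound site, and a window without a match says nothing of the factor.

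The genes of the BRCA1-BARD1 and BRCA2 complexes rose as a group, with a median log2 fold change of 0.64 over 5 genes. In none of them did vehicle and YKL-05-099 values overlap, and 26.5% of all genes tested were likewise higher without overlap. Brca1 (chromosome 11, 101488764 to 101551955, GRCm38), the ubiquitin ligase and scaffold that steers breaks towards recombination, was at 4.99, 3.16, 4.20 and 4.17 FPKM in vehicle libraries 1 to 4 and at 9.37, 7.62, 7.20 and 8.11 FPKM in YKL-05-099 (treated) libraries 1 to 4. Every treated library exceeded the highest vehicle library, and the ratio of the means was 1.96 (log2 fold change 0.83, SE 0.11, adjusted p = 0.000404). Bard1, the obligate partner of BRCA1, was at 1.95, 1.51, 1.75 and 2.14 FPKM in vehicle and 4.68, 3.32, 3.28 and 3.50 FPKM in YKL-05-099. Treated library 1 stood well above the other treated libraries, yet all 4 lay above the vehicle range (log2 fold change 0.72, SE 0.11, adjusted p = 0.000800).

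The protein of Brca2 (chromosome 5, 150522630 to 150570329) acts on resected DNA, downstream of BRCA1 and PALB2. The vehicle libraries held 6.09, 5.44, 6.08 and 4.73 FPKM and the YKL-05-099 libraries 8.42, 8.09, 7.02 and 8.35 FPKM (log2 fold change 0.45, SE 0.09, adjusted p = 0.00250). The ratio of the means was 1.43, and treated library 3 came closest to the vehicle range. Brip1, the helicase that binds BRCA1, was tight in vehicle at 1.76, 1.65, 1.84 and 1.86 FPKM and stood at 4.14, 3.02, 2.95 and 3.29 FPKM in YKL-05-099 (log2 fold change 0.64, adjusted p = 0.000599). Palb2, the bridge between BRCA1 and BRCA2, rose from 1.27 ± 0.321 to 2.37 ± 0.472 FPKM (adjusted p = 0.00596).

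The genes of strand invasion held the gene with the smallest p of all 41. Rad51c (chromosome 11, 87376645 to 87404954), a factor that acts on resected ends and whose loss disables recombination, was at 3.44, 3.28, 4.24 and 5.38 FPKM in vehicle and 10.9, 9.78, 9.61 and 9.93 FPKM in YKL-05-099. The treated libraries lay close together and all above the vehicle range, for a ratio of means of 2.46 (log2 fold change 1.14, SE 0.12, adjusted p = 8.38e-05). Rad52, an annealing factor, was at 6.98, 6.38, 6.87 and 7.36 FPKM in vehicle and 9.99, 11.1, 9.88 and 11.3 FPKM in YKL-05-099, with no overlap (log2 fold change 0.55, adjusted p = 0.000170). Rad54l, a motor protein that helps an end invade the sister duplex, was at 2.98, 2.72, 3.21 and 3.56 FPKM in vehicle and 5.96, 5.29, 4.18 and 5.38 FPKM in YKL-05-099. Its treated library 3 was the lowest of the 4 and still above all vehicle libraries (log2 fold change 0.59, adjusted p = 0.00148). Rad51ap1, which stimulates strand invasion, rose with a ratio of means of 2.00, from 3.00, 2.39, 4.40 and 3.28 FPKM to 7.53, 5.30, 6.10 and 7.19 FPKM (log2 fold change 0.83, SE 0.14, adjusted p = 0.00150).

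Of the other genes in this group, Rad54b, a relative of RAD54, rose from 2.48 ± 0.344 to 4.37 ± 0.654 FPKM (adjusted p = 0.00158) and Xrcc3, whose product pairs with that of Rad51c, from 2.16 ± 0.325 to 2.89 ± 0.211 FPKM (adjusted p = 0.0200). The smallest called rise of all 28 was that of Rad51d, from 9.66 ± 0.804 to 11.05 ± 0.354 FPKM (log2 fold change 0.18, adjusted p = 0.0405). The calls of Rad51d and Xrcc3 were lost under some alternatives (here and below those without a covariate), where their adjusted p from limma ran up to 0.194 and 0.0621. Xrcc3 lost its call without vehicle library 3 (adjusted p = 0.0555) or treated library 3 (0.0571), and Rad51d without any of 7 libraries, vehicle library 4 being the exception. Rad51b at 1.33 ± 0.170 and 1.78 ± 0.450 FPKM and Xrcc2 at 3.10 ± 0.344 and 3.42 ± 0.262 FPKM were not called (adjusted p = 0.143 and 0.305), although Rad51b was without treated library 3 (0.0284, the lowest of its alternatives, which ran up to 0.334). The log2 fold changes of Rad51b, Rad51c, Rad51d, Xrcc2 and Xrcc3 thus ran from 0.11 for Xrcc2 to 1.14 for Rad51c.

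Break sensing and end resection split. Exo1, the long-range resection nuclease, was at 2.60, 3.40, 3.42 and 3.57 FPKM in vehicle and 8.43, 5.70, 6.49 and 6.76 FPKM in YKL-05-099, so that every treated library exceeded every vehicle library (ratio of means 2.11, log2 fold change 0.88, SE 0.11, adjusted p = 0.000285). Rbbp8 rose by less but with little spread, from 24.96, 24.9, 24.5 and 25.4 FPKM to 31.1, 29.1, 30.7 and 29.9 FPKM (log2 fold change 0.27, SE 0.04, adjusted p = 0.000663). Rad50, the long coiled-coil ATPase that tethers ends, was at 12.6, 11.8, 12.0 and 12.7 FPKM in vehicle and 14.998, 14.6, 14.5 and 15.4 FPKM in YKL-05-099 (log2 fold change 0.26, adjusted p = 0.00172).

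Mre11a (chromosome 9, 14784654 to 14837123), the nuclease of the same complex, went the other way. It was at 20.5, 20.2, 20.3 and 20.2 FPKM in vehicle and 16.1, 16.9, 17.7 and 18.5 FPKM in YKL-05-099, without overlap (log2 fold change -0.22, SE 0.05, adjusted p = 0.00542). Nbn, the third subunit, overlapped between the groups at 11.4 ± 0.625 and 12.8 ± 0.889 FPKM and was not called (adjusted p = 0.0600), but was called higher without vehicle library 4 (0.0331), without treated library 2 (0.0473) or with every library rescaled to TPM, which sums to the same total in each (0.0385), the alternatives running up to 0.316. Blm, the RecQ helicase that dissolves crossover structures, rose from 2.42 ± 0.287 to 3.25 ± 0.417 FPKM (adjusted p = 0.0231), a call that was lost without treated library 1 (0.0608, in a range of 0.0165 to 0.0720). The related helicase gene Wrn stood at 7.53 ± 0.366 and 8.33 ± 0.183 FPKM, with no overlap between the groups, and was not called (adjusted p = 0.0701) except without vehicle library 4 (0.0459, in a range up to 0.651).

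In the Fanconi anemia pathway 5 of 8 tested genes rose (28.0% of all genes tested did) and 3 were not called. Both partners of the ubiquitinated clamp were among those that rose. Fanci was at 1.99, 1.62, 1.94 and 2.02 FPKM in vehicle and 4.25, 3.40, 3.63 and 3.23 FPKM in YKL-05-099 (log2 fold change 0.68, adjusted p = 0.000331). Its partner Fancd2 was at 2.21, 1.55, 2.06 and 2.23 FPKM in vehicle and 4.22, 3.14, 3.87 and 3.93 FPKM in YKL-05-099 (log2 fold change 0.67, adjusted p = 0.000800), so the ratios of means were 1.92 and 1.88. Vehicle library 2 was the lowest for both, and neither gene overlapped between the groups. The ligase that modifies this clamp is a core complex, whose members moved unevenly. Fancg was at 6.09, 5.36, 4.66 and 6.40 FPKM in vehicle and 8.64, 8.72, 10.1 and 9.997 FPKM in YKL-05-099 (log2 fold change 0.65, adjusted p = 0.000517). Fance was at 12.4, 11.6, 11.8 and 11.02 FPKM in vehicle and 13.8, 14.5, 13.8 and 13.8 FPKM in YKL-05-099 (log2 fold change 0.24, adjusted p = 0.00393).

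Fancm, the translocase that recruits the core complex, rose from 1.51 ± 0.113 to 2.08 ± 0.161 FPKM (adjusted p = 0.0127). Fancl, the catalytic ubiquitin ligase subunit, was at 10.2 ± 0.843 and 9.49 ± 0.651 FPKM, and Fancc was at 2.20 ± 0.353 and 2.15 ± 0.172 FPKM. Usp1, which removes the ubiquitin again, was at 18.4 ± 0.904 and 20.3 ± 1.56 FPKM. None of these 3 was called (adjusted p = 0.281, 0.892 and 0.115), apart from Usp1 without treated library 3 (0.0397, in a range up to 0.349). Fancb, which was under the filter, was at 0.568, 0.632, 0.656 and 0.700 FPKM in vehicle and 1.55, 1.34, 0.949 and 1.27 FPKM in YKL-05-099, without overlap. Fancf, likewise under the filter, overlapped at 0.402 ± 0.114 and 0.532 ± 0.154 FPKM.

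Of 6 checkpoint signaling genes 5 rose (28.0% of all genes tested did), with a median log2 fold change of 0.39 over the 6. Chek1, the effector kinase of replication stress, was at 6.86, 6.51, 5.78 and 6.54 FPKM in vehicle and 12.2, 12.7, 9.73 and 11.2 FPKM in YKL-05-099 (log2 fold change 0.75, SE 0.08, adjusted p = 0.000137). Chek2 (chromosome 5, 110839979 to 110874145), the effector kinase of double-strand breaks, was at 6.05, 6.47, 6.15 and 6.89 FPKM in vehicle and 12.4, 9.67, 13.6 and 12.5 FPKM in YKL-05-099 (log2 fold change 0.81, SE 0.09, adjusted p = 0.000146). The lowest treated library, number 3 for Chek1 and number 2 for Chek2, still lay above the highest vehicle library. Topbp1, which activates ATR at stalled forks, was at 18.4, 15.3, 18.7 and 17.2 FPKM in vehicle and 27.2, 22.7, 22.8 and 22.4 FPKM in YKL-05-099 (log2 fold change 0.43, adjusted p = 0.00212).

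Trp53bp1 (chromosome 2, 121193281 to 121271407), which protects ends from resection and favors end joining, was at 19.98, 18.3, 23.2 and 22.2 FPKM in vehicle and 25.8, 27.1, 27.4 and 26.6 FPKM in YKL-05-099. It rose, as did Brca1, its opponent in the choice of repair route, with a log2 fold change of 0.34 (SE 0.07, adjusted p = 0.00325). Of the apical kinases, Atm, which responds to double-strand breaks, overlapped between the groups and was called narrowly, at 3.61 ± 0.784 and 4.74 ± 0.371 FPKM (adjusted p = 0.0388). Its adjusted p ran from 0.00215 to 0.122 over the alternatives, and leaving out any of vehicle libraries 1 to 3 or treated libraries 1 to 3 ended the call. Atr, which responds to single-stranded DNA, was at 5.603 ± 0.601 and 5.604 ± 0.342 FPKM (log2 fold change 0.00, SE 0.08, adjusted p = 0.976).

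Among the PARP enzymes, Parp1 was at 56.5, 55.6, 59.6 and 50.5 FPKM in vehicle and 59.4, 59.3, 52.9 and 60.7 FPKM in YKL-05-099. The groups overlapped and Parp1 was not called (log2 fold change 0.06, SE 0.06, adjusted p = 0.430). Parp2, the smaller relative of Parp1, was at 11.3, 10.6, 11.5 and 10.6 FPKM in vehicle and 13.7, 12.9, 12.6 and 13.4 FPKM in YKL-05-099, without overlap (log2 fold change 0.24, adjusted p = 0.00485). Polq, the polymerase of the end joining route that uses short homologies, lay under the filter at 0.614, 0.501, 0.381 and 0.579 FPKM in vehicle and 1.22, 1.05, 1.06 and 0.991 FPKM in YKL-05-099. These did not overlap, and with no filter on low values Polq had a log2 fold change of 0.45 (limma adjusted p = 0.00371).

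Non-homologous end joining genes moved in both directions, with a median log2 fold change of 0.02 over 4 genes. Xrcc5 (chromosome 1, 72307421 to 72394952), the Ku80 subunit of the ring that caps broken ends, was at 18.8, 18.4, 18.8 and 17.96 FPKM in vehicle and 15.4, 15.6, 16.2 and 15.6 FPKM in YKL-05-099. Every treated library lay below every vehicle library (log2 fold change -0.23, SE 0.04, adjusted p = 0.00219). Xrcc6, the other subunit of the same ring, was at 36.2, 37.2, 39.1 and 40.6 FPKM in vehicle and 39.6, 39.99, 42.7 and 42.4 FPKM in YKL-05-099, overlapped and was not called (adjusted p = 0.116) except without vehicle library 4 (0.0465, in a range up to 0.480). Prkdc, the large kinase that Ku recruits, was at 3.51, 2.86, 3.36 and 3.56 FPKM in vehicle and 4.47, 4.85, 4.39 and 4.32 FPKM in YKL-05-099 (log2 fold change 0.35, adjusted p = 0.00425). Lig4, the ligase that seals the ends, overlapped at 2.40 ± 0.239 and 2.23 ± 0.230 FPKM (adjusted p = 0.512).

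Repair genes outside the 45 were read from lists of other genes of the same pathways. Of 80 tested genes in 4 lists (other recombination, Fanconi and crosslink, checkpoint and end joining genes), 41 rose and none fell. Among all genes tested 28.0% rose and 15.1% fell. The median log2 fold change of the 80 genes was 0.20. Of these genes 2 were lower at an unadjusted p under 0.05, and with quantile scaling 4 were called lower. In the recombination list 16 of 31 rose, including the helicase gene Recql5 (log2 fold change 0.47), the structure-specific nuclease gene Eme1 (0.76) and Mcm8 (0.51). In the Fanconi and crosslink list 8 of 17 rose. Ube2t, the ubiquitin-conjugating enzyme that charges FANCL, went from 4.16 ± 0.686 to 9.83 ± 1.01 FPKM (log2 fold change 1.08, adjusted p = 5.36e-05), and Stra13 (0.38) and Faap20 (0.31) rose less.

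Checkpoint and chromatin response genes outside the set rose in 12 of 22 cases, among them the ATR activator Etaa1 (log2 fold change 0.72), the fork protection gene Timeless (0.62) and the break-site scaffold Mdc1 (0.36). Other end joining genes rose in 6 of 11 cases, including Aplf (0.46) and the gap-filling polymerase genes Polm (0.42) and Poll (0.38). Routes that mend single bases or bulky lesions had shares nearer the 28.0% over all genes. Of base excision repair genes 6 of 17 rose, with Mbd4 (0.99), Ung (0.49) and Neil3 (0.99) as those with the smallest p, and the glycosylase gene Mpg fell (-0.21). Of nucleotide excision repair genes 5 of 18 rose, among them Ercc5 (0.73) and Ddb2 (0.30), while Ddb1 fell (-0.23). In mismatch repair 2 of 7 genes rose, Msh3 (0.39) and Pms1 (0.37).

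**Figure D3:**
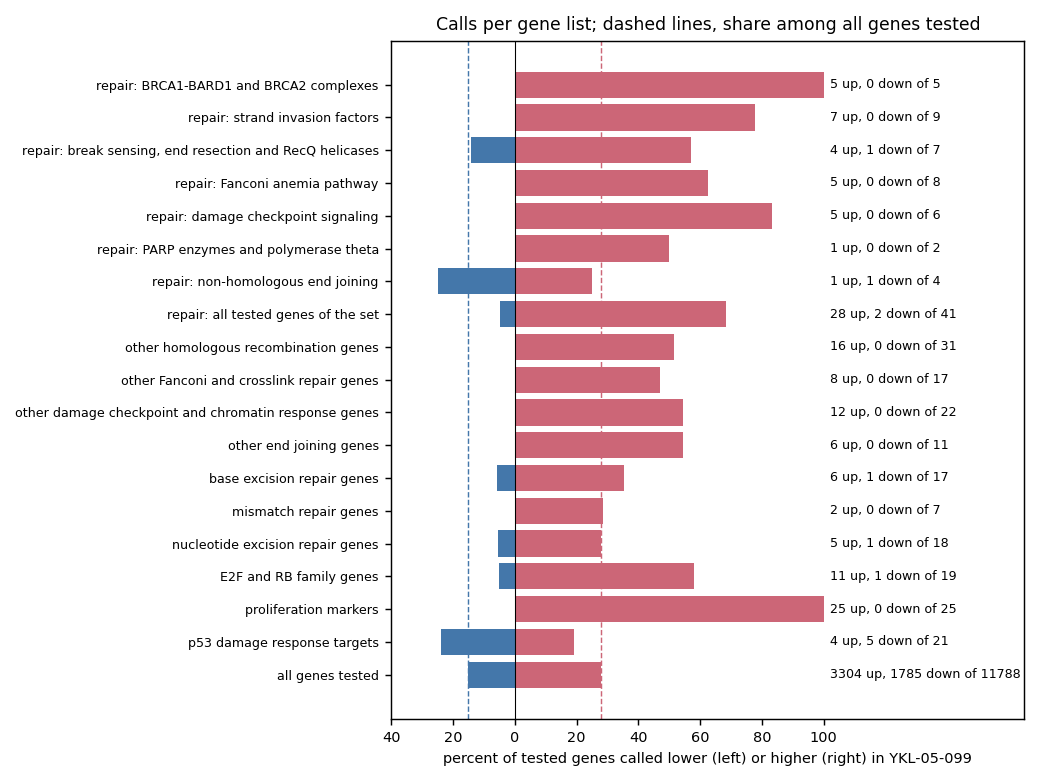
Percent of tested genes called higher (bars to the right) or lower (bars to the left) in YKL-05-099 for each role group of the repair genes and each other list, with the counts at the right. Dashed lines mark the shares among all genes tested, 28.0% higher and 15.1% lower; non-homologous end joining, with 1 up and 1 down of 4, is the role group with the smallest share higher.

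Genes that mark dividing cells moved with the repair genes. All 25 tested proliferation markers rose, with a median log2 fold change of 0.80, and 11 of 19 genes of the E2F and RB family rose, among them E2f1 (0.69), Foxm1 (0.95) and E2f8 (1.01), while E2f4 fell (-0.19). Targets of p53 in the damage response moved in both directions, with 4 of 21 higher (Trp53inp1, Gadd45a, Sesn2 and Polk) and 5 lower (Perp, Btg2, Plk2, Cdkn1a and Plk3), beside 28.0% and 15.1% of all genes tested. Cdkn1a, the p21 cell cycle inhibitor, fell from a mean of 34.9 to 26.7 FPKM, and Trp53 itself was at 95.7 and 96.4 FPKM and not called. The mean log2(FPKM + 1) of the proliferation markers was 3.95 to 4.21 in vehicle, 4.68 to 4.98 in YKL-05-099 and 5.91 in culture.

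Within a group, some but not all libraries at the extremes of the proliferation markers were also at the extremes of the repair genes. Vehicle library 4 was the highest vehicle library for 16 of the 28 repair genes that rose and for 23 of 25 proliferation markers, against 31.7% of all genes tested. Vehicle library 2 was the lowest for 16 of 28 and 16 of 25, against 28.7% of all genes. Among treated libraries, number 1 was the highest for 15 of 28 repair genes and 21 of 25 proliferation markers, against 26.9% of all genes. Number 3 was the lowest for 14 of 28 and 13 of 25 (25.3% of all genes). Number 2 was the lowest for 6 of 28 and 12 of 25 (24.4%), and number 4 for 6 of 28 and 0 of 25 (25.4%). Over all 41 tested repair genes, treated library 1 was the highest for 17 and vehicle library 4 for 21, and vehicle library 2 was the lowest for 20.

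**Figure D4:**
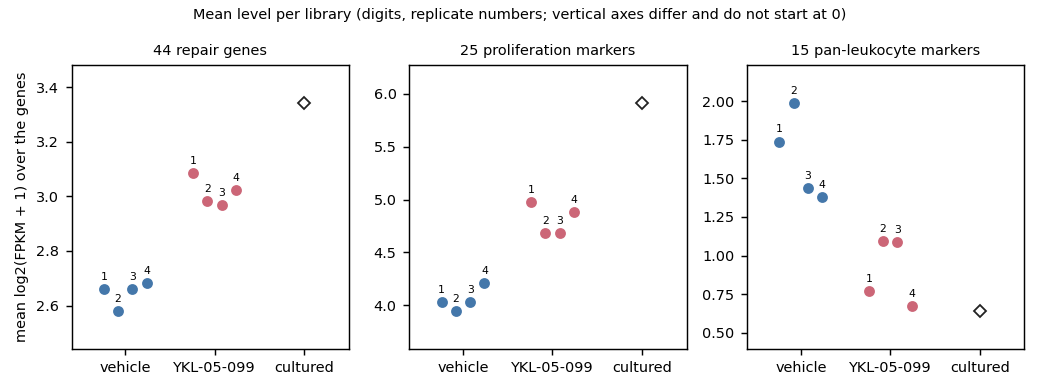
Mean log2(FPKM + 1) in each library over 44 repair genes, 25 proliferation markers and 15 pan-leukocyte markers (vertical axes, which differ between panels and do not start at 0); digits are replicate numbers, points the mouse libraries and the diamond the cultured library. The repair gene mean runs from 2.58 to 2.68 in vehicle, from 2.97 to 3.09 in YKL-05-099 and to 3.34 in culture, in the same order of groups as the proliferation markers and the reverse of the leukocyte markers.

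Fits that carried one of these scores as a covariate returned fewer calls. With the pan-leukocyte mean in the model, Rad51c (log2 fold change 0.70, adjusted p = 0.0472), Chek1 (0.78, adjusted p = 0.0363) and Xrcc3 (0.59, adjusted p = 0.0445) were called higher and no repair gene lower (1 at an unadjusted p under 0.05), while the median log2 fold change of the 41 genes was 0.25 and their median SE 0.159 in place of 0.0839. With the mean of the proliferation markers, a fit added after seeing the data, no repair gene was called (2 at an unadjusted p under 0.05), and the median log2 fold change was 0.07 with a median SE of 0.267. Over all genes the first of these fits called 373 higher (3.16%) and 229 lower (1.94%), and the second 11 higher (0.0933%) and 2 lower (0.0170%). Neither score overlaps between the groups, so either score and treatment cannot be told apart in these libraries.

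Some repair genes share exon bases with a neighbor on the other strand, and whether strand was used in counting is not given in the sources used here. Of the 44 genes 17 share bases in this way. The largest shares with a neighbor on the other strand at a mean of 1 FPKM or more in the mouse libraries were 15.95% of Fanci with Polg (17.2 FPKM), 15.4% of Rad54l with Lrrc41 (44.2 FPKM), 15.04% of Trp53bp1 with Tubgcp4 (16.9 FPKM), 13.7% of Fancl with Vrk2 (6.08 FPKM) and 7.69% of Xrcc6 with Desi1 (20.1 FPKM). Fancc shares 16.4% with Gm16133, which was listed at 0, and Fancf shares 14.96% with Gas2, at 0.537 FPKM against 0.467 FPKM for Fancf itself. Rad54b shares 35.8% of its exon bases with Fsbp on its own strand (0.290 FPKM). The values of these genes are uncertain by what such reads add.

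The cultured library was set beside the mouse libraries with no test, as it has no replicate. This comparison uses the same vehicle libraries as the treatment comparison, so the values of both are not independent. To count as apart, a cultured value had to be higher or lower than in each of the 8 mouse libraries and to differ from the vehicle mean by at least 1 log2 unit. Of 44 repair genes 14 were apart on the high side (9.62% of 12296 genes entered were) and none on the low side (10.6% of all genes). Cultured cells lay above all 8 mouse libraries for 27 repair genes (37.4% of all genes) and below all of them for 3, Xrcc5, Rbbp8 and Nbn (36.2% of all genes). With a limit of 2 log2 units Rad51ap1 alone was apart on the high side (2.08% of all genes) and none on the low side (3.06%).

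The largest difference was that of Rad51ap1, at 15.9 FPKM in culture beside a vehicle mean of 3.27 and a YKL-05-099 mean of 6.53 FPKM (2.01 log2 units above vehicle). Fancd2 stood at 9.99 FPKM in culture, 1.87 log2 units above vehicle, and Fancb at 4.39 FPKM, 1.72 log2 units above. Chek2 was at 21.9 FPKM in culture (1.63 log2 units). Rad51b, which was not called for treatment, was at 5.73 FPKM in culture against at most 2.29 FPKM in any mouse library (1.53 log2 units). The others that were apart were Blm, Fanci, Rad51c, Rad54l, Rad54b, Exo1, Brca1, Fancg and Parp2, at 1.04 to 1.52 log2 units. Brca1 was at 10.05 FPKM in culture, and Bard1, at 4.66 FPKM, stayed just within the mouse range because treated library 1 held 4.68 FPKM.

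On the low side, Xrcc5 was at 10.5 FPKM in culture, below every mouse library (-0.76 log2 units from vehicle), while its partner Xrcc6 was at 62.6 FPKM, above every mouse library. Atm at 3.06 FPKM (-0.17) and Mre11a at 18.4 FPKM (-0.13) lay within the mouse range, and Rbbp8 at 23.0 FPKM (-0.11) and Nbn at 10.5 FPKM (-0.10) lay just below it. Of the 28 genes that rose with treatment, 17 lay above all mouse libraries in culture, 10 within their range and 1, Rbbp8, below. Of all 12296 genes entered, 37.4% lay above and 36.2% below. The shares among all genes that rose were not computed, and both comparisons use the same vehicle libraries, so these counts do not link culture and treatment. Brca2, at 6.68 FPKM in culture, lay between its vehicle and treated libraries, and Chek1, at 10.7 FPKM, lay among its treated libraries.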

How the data were processed

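Gene expression was measured in 4 vehicle, 4 YKL-05-099 and 1 cultured library, grouped by the sample titles. The authors deposited FPKM for each gene in each library, each with a status, per the file headers. Reads were demultiplexed with bcl2fastq 2.19 and the build was GRCm38, per the submitters' processing notes. Which aligner and quantification program were used, and whether strand was counted, is not given in the sources used here. From 48302 rows, 65 repeats of a gene identifier (the longest locus was kept) and 7 genes with a failed estimate were left out.

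Treatment was tested with limma 3.58.1 (R 4.3.3) on log2(FPKM + 1) values, fitting the mean-variance trend and no block. Genes entered when 4 or more of the 8 mouse libraries reached an FPKM of 1. Benjamini-Hochberg adjustment ran over all genes tested, and an adjusted p under 0.05 was called. The script was tested on simulated data. FPKM is scaled within a library, so a change in a few abundant genes moves all others. Median-of-ratios and quantile scaling are meant to address this, while TPM scaling, which divides by the library sum, does not. Gene lists were written from textbook knowledge, and the members and lists were chosen with earlier results of these data known. Values in every library are given for up to 4 genes per role with the smallest p, for genes that fell, and for Brca1, Brca2 and Trp53bp1. Other lists give up to 3 genes with the smallest p and those against the direction of their list, and culture gives up to 5 differences in each direction. Promoters come from RefSeq (GRCm38.p6). Exon overlaps come from GENCODE M21, in which 37 of 44 genes had the coordinates of the deposited table. Same-numbered libraries of both groups correlated at -0.018, 0.133, -0.047 and 0.172 in their deviations across genes. Differently numbered libraries ran from -0.266 to 0.158. The labels do not state a pairing, and these values cannot exclude one. Some results are not reported here.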

Additional observations from a re-analysis of the deposited data

Results flagged for a closer look

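In 88 groups of 4 libraries (44 repair genes in vehicle and in YKL-05-099), 1 library stood apart from the other 3 in 4 groups, by a gap to the nearest library above Dixon's critical value. Chance alone gives about 1 in 20 such groups. All 4 were the highest library of the YKL-05-099 group. Bard1, the partner of Brca1, was at 4.68 FPKM in treated library 1, and Topbp1, the activator of ATR, was at 27.2 FPKM in the same library. Rad51d, a factor of strand invasion, was at 11.6 FPKM in treated library 2, and Fance, of the Fanconi core complex, was at 14.5 FPKM in that library. Without treated library 1, Bard1 and Topbp1 kept their calls, and without treated library 2 Fance kept its call and Rad51d lost it (limma log2 fold change 0.16, adjusted p = 0.107, over alternatives from 0.00986 to 0.194).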

How the results depend on the processing

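Alternatives changed the pseudocount (0.5 and 0.1), the filter (none, or a mean FPKM of 5 and over), the scaling (median of ratios, quantile, TPM), the trend, the replicate block and marker covariates, or left out each library in turn. Without covariates, 24 of the 28 repair genes that rose and 2 of the 2 that fell kept direction and call in every alternative that tested them. Leaving out libraries gave 25 to 31 repair genes higher and 2 lower, 2771 to 3482 of all genes higher and 1392 to 2016 lower, 36 to 43 other pathway genes higher and 0 to 2 lower (1 without vehicle library 4 and 2 without treated library 2), 30 to 33 genes without overlap, and 14 to 15 apart in culture. With the replicate block 26 repair genes were higher and 2 lower, losing Atm and Rad51d, and all genes gave 3148 higher and 1682 lower; the block moved no other call of a repair gene. With the filter at a mean of 5, where 24 repair genes were tested, 15 were higher and 18 did not overlap. Other pathway genes lower were 2 with median-of-ratios scaling, 4 with quantile scaling, 1 without the trend and 1 with the replicate block. At 2 log2 units 1 repair gene, Rad51ap1, was apart in culture (2.08% of all genes higher). With the pan-leukocyte covariate 3 repair genes were higher and 0 lower, 373 genes higher and 229 lower, and 4 other pathway genes higher. With the proliferation covariate, added after seeing the data, these were 0, 0, 11, 2 and 0. Both scores differ between the groups without overlap, which enlarges the standard errors by construction.

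Log2 fold changes that changed sign were those of Atr (0.003 in the main comparison), at -0.047 with median-of-ratios scaling, -0.101 with quantile scaling and -0.031 to 0.063 with a library left out, below 0 without vehicle library 2 or 4 or treated library 1 or 2. Fancc (-0.018) gave 0.068 with the pan-leukocyte covariate and -0.093 to 0.038 with a library left out, above 0 without vehicle library 1 or treated library 1. With the pan-leukocyte covariate Xrcc2 gave -0.0020 and Usp1 -0.068. With the proliferation covariate the values were -0.129 for Bard1, -0.530 for Rad51b, -0.060 for Xrcc2, -0.151 for Rad54l, -0.049 for Wrn, -0.063 for Fancm, -0.282 for Usp1, -0.070 for Atm and 0.149 for Lig4. The cause was not tested.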
